A study of Mus musculus with 18 samples.

Results

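The 10 genes described here encode the enzymes that use and remake arginine: the nitric oxide synthases Nos1, Nos2 and Nos3, the arginases Arg1 and Arg2, the citrulline-recycling enzymes Ass1 and Asl, and the polyamine enzymes Odc1, Srm and Sat1. They were chosen by symbol, and all 10 were listed both among the 22137 genes of the table of LFD and HFD tumours and among the 24778 genes of the table of shYap and shCon tumours. RNA came from tumours that MC38 cells, a colon carcinoma line of the mouse, formed in the liver after injection into the spleen of mice of wild-type genotype. Groups were HFD (mice fed a high-fat diet, n = 5), LFD (low-fat diet, n = 5), and, all on the high-fat diet, tumours labelled with a hairpin against Yap (shYap, n = 4) or with a control hairpin (shCon, n = 4). The 18 libraries are bulk tumour tissue, so fewer cells of a type and less RNA per cell cannot be told apart. The sources used here do not say whether replicates were different animals or whether each hairpin line was a single clone, so p-values cover only the spread among these libraries, which may be technical. The choice of genes was made with earlier results known, among them the high Nos1 and the low Arg1 of HFD tumours, so members are described without a test in HFD against LFD and tested only in shYap against shCon.

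Nitric oxide synthases turn arginine into nitric oxide and citrulline. Ass1 and Asl convert citrulline back to arginine, through argininosuccinate, and arginases split arginine into urea and ornithine. Odc1 makes putrescine from ornithine, Srm makes spermidine from putrescine, and Sat1 acetylates spermidine and spermine for breakdown or export. In liver, Arg1, Ass1 and Asl are urea cycle enzymes of hepatocytes, whereas Arg1 and Nos2 are also textbook products of alternatively and classically activated macrophages.

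Library totals were 17766207 to 18474191 estimated counts in the table of HFD and LFD, and 17207214 to 21309950 in the other. Levels are given as CPM, counts scaled by the TMM-adjusted library size, with each table scaled alone. Albumin (Alb), the main secretory product of hepatocytes, lay at 168 to 1889 CPM in HFD, 5492 to 51490 CPM in LFD, 8278 to 36890 CPM in libraries labelled shYap and 4304 to 19470 CPM in shCon. HFD was the only group below all others. The 10 hepatocyte markers summed to 993 to 6656 CPM in HFD, 12030 to 103600 in LFD, 16200 to 80590 in shYap and 12210 to 44490 in shCon, with no marker at 0 in any library, while the 10 macrophage markers summed to 2832 to 3682 CPM in HFD, 2131 to 4470 in LFD, 2656 to 3623 in shYap and 3482 to 3947 in shCon. The epithelial list of 7 markers summed to 54.3 to 543 CPM over the HFD and LFD libraries, with 1 or 2 markers at 0 in some. HFD replicates 1 and 2 and replicates 3 and 4 were closer to each other (biological coefficient of variation of 7.32% and 6.37%) than any other pair of libraries within a group (11% to 55.1%). The female-specific RNA Xist, singled out after its values were seen, was at 72.9 to 135 CPM in LFD and at most 0.293 CPM in HFD, so diet and this difference cannot be told apart. Yap1 was at 75.9 ± 5.62 CPM in the libraries labelled shYap and 77.9 ± 3.55 CPM in shCon (SD, n = 4 each), so the RNA does not show the labelled knockdown.

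**Figure D1:**
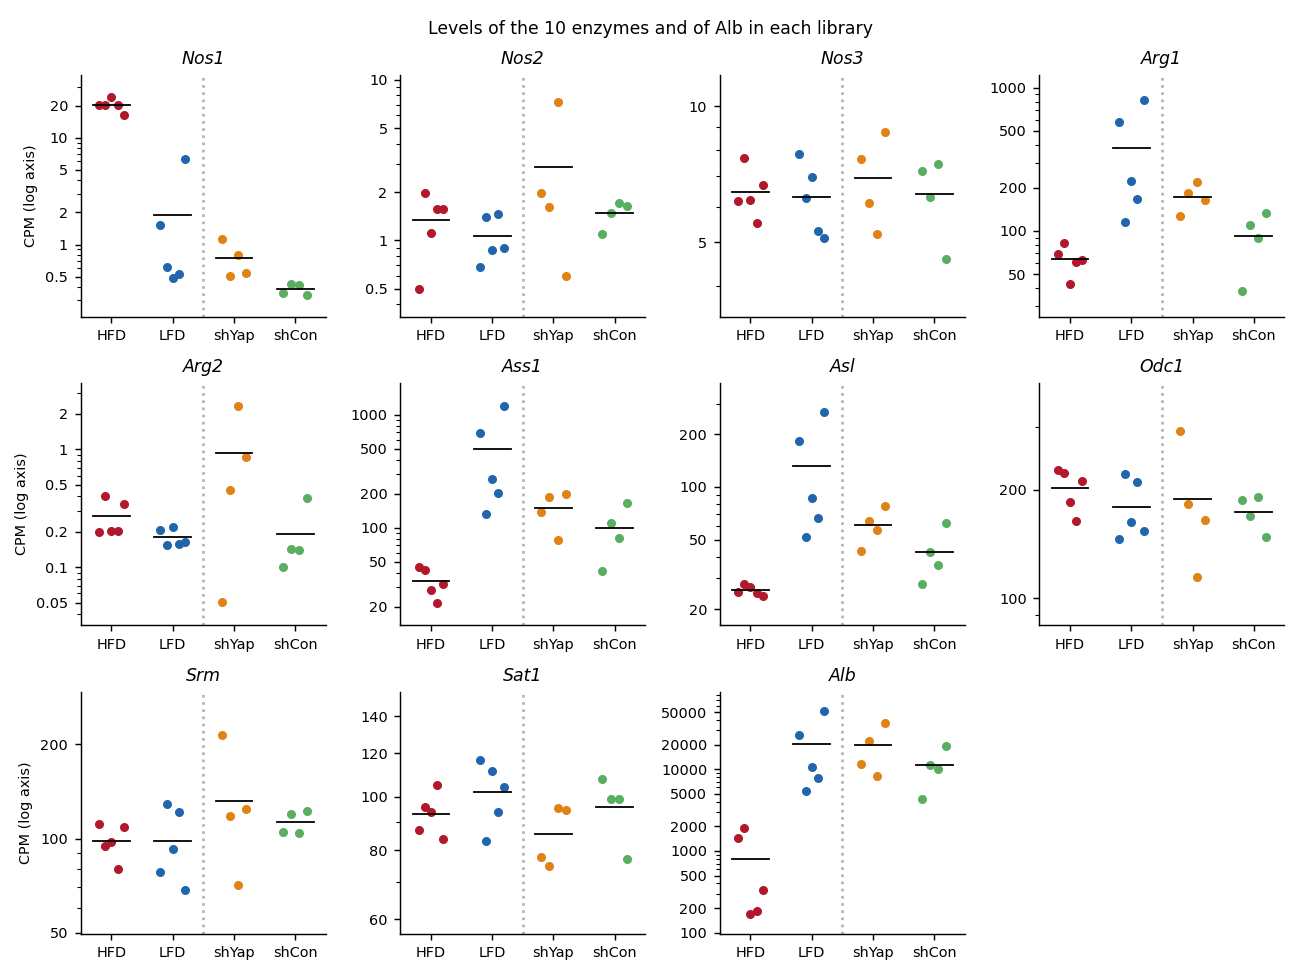
CPM (log axis) of each of the 10 enzymes and of Alb in every library, by group, with a black line at the group mean; the dotted line separates the tables, which were scaled separately. Nos1 is at 16.3 to 24.3 CPM in HFD and at most 6.35 CPM elsewhere, and Arg1, Ass1 and Asl do not overlap between HFD and LFD and are lower in HFD.

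RefSeq start-site windows (GRCm38.p6) were found for 4 of the 10 genes, Nos1, Ass1, Odc1 and Sat1. The 250 bases before the start are shown for Nos1, Ass1 and Odc1, since these stand for the patterns below: high in HFD alone, low in HFD, and overlapping between HFD and LFD. They lie at chr5:117866589-117866838, chr2:31470020-31470269 and chr12:17544623-17544872, all on the plus strand, and the Nos1 window lies inside the longer gene of GENCODE M21. Whether Nos1 RNA of these tumours starts at that window was not tested, so the window need not be the promoter in use. Capitals mark matches, on either strand, to the E-box, spelled CACGTG, or the GC box, spelled GGGCGG. The TATA box, spelled TATAAA, and an element of C/EBP type, spelled TTGCNNAA, were also searched for on both strands. No matches overlapped.
Nos1: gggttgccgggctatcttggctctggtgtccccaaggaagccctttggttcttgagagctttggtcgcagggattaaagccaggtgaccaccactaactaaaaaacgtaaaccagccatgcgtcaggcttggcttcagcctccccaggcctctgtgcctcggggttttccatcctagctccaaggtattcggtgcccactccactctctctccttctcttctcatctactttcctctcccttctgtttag
Ass1: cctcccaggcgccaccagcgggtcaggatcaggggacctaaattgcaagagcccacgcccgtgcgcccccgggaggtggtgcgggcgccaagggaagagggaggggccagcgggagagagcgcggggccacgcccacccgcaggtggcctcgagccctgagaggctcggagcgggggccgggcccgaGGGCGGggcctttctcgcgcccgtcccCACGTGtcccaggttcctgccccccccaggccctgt
Odc1: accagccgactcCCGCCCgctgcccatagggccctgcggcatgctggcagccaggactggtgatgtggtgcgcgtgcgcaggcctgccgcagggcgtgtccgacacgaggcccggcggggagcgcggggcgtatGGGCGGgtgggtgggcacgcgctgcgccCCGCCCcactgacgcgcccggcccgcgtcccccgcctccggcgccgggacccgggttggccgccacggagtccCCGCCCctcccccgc
The Nos1 window held no match to any of the 4 motifs, the Ass1 window 1 E-box and 1 GC box, and the Odc1 window 4 GC boxes. Of 32851 windows of this length, 6.02% held the E-box, 32.7% the GC box, 12.4% the TATA box and 9.56% the C/EBP element. A match is a description of the sequence and not a bound site.

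Nos1, the neuronal nitric oxide synthase (ENSMUSG00000029361, chr5:117781032-117958840, GRCm38), was the one enzyme that was high in HFD tumours. It was at 20.1, 20.2, 24.3, 20.1 and 16.3 CPM in HFD replicates 1 to 5, against 1.51, 0.622, 0.490, 0.524 and 6.35 CPM in LFD replicates 1 to 5. The groups did not overlap, and LFD replicate 5 stood nearest to HFD. The log2 fold change was 3.48 ± 0.68 SE, and 4.73 ± 0.32 without LFD replicate 5. Exons of Nos1 share 268 bases with the antisense gene Gm26995, and library strand is not given, so reads of both cannot be told apart there. The high-fat-fed tumours of the other table did not have this level. There Nos1 was at 1.11, 0.505, 0.794 and 0.544 CPM in libraries labelled shYap replicates 1 to 4 and at 0.351, 0.429, 0.416 and 0.339 CPM in shCon replicates 1 to 4, although these mice were also on the high-fat diet. In estimated counts this was 333 to 483 per HFD library, 9 to 78 per LFD library, 10 to 22 per shYap library and 7 to 9 per shCon library. The tables were quantified separately, so no test was run between HFD and shCon. Neuronal markers, of which 4 of 6 were listed, summed to 29.2 to 39.3 CPM in HFD and 15.9 to 35.6 CPM in LFD. Most of this was Tubb3, at 28.5 to 38.4 CPM in HFD and 10.2 to 20.1 CPM in LFD, while Rbfox3, which defines mature neurons, was at most 0.498 CPM in HFD and 1.1 CPM in LFD. Syt1, a synaptic vesicle protein, did not overlap in the other direction, at 0.0978 to 0.758 CPM in HFD and 1.09 to 15.0 CPM in LFD, and its highest value was in LFD replicate 5, which also had the highest Nos1 of its group. Gap43, of growing axons, was at 0.101 to 0.782 CPM in HFD and at most 0.0814 CPM in LFD. In the hairpin libraries the neuronal sums were 20.3 to 81.25 CPM in shYap and 13.4 to 17.8 CPM in shCon. The highest was that of the library labelled shYap replicate 1, where Nos1 was at 1.11 CPM. The part of neuronal cells in the Nos1 values was not tested. The skeletal muscle list, another tissue that uses this synthase, summed to at most 1.55 CPM in HFD and 2.23 CPM in LFD.

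Nos2, the inducible synthase (chr11:78920787-78960254), and Nos3, the endothelial one (chr5:24364810-24384474), were low and overlapped between diets. Nos2 averaged 1.34 ± 0.561 CPM in HFD and 1.06 ± 0.347 CPM in LFD (SD, n = 5 each), and its fold change on the log2 scale was 0.32 ± 0.36 SE. Nos3 averaged 6.46 ± 0.797 CPM in HFD and 6.30 ± 1.14 CPM in LFD (SD, n = 5 each), with 0.04 ± 0.15 SE. The 8 endothelial markers summed to 122 to 158 CPM in HFD and 104.5 to 247 CPM in LFD, ranges that overlapped as those of Nos3 did. Exons of Nos3 share 294 bases with Atg9b and 1040 bases with Gm15587 on the opposite strand, and library strand is not given, so reads of these genes cannot be told apart there.

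The urea cycle enzymes of the set were low in HFD tumours. Arg1, the cytosolic arginase (ENSMUSG00000019987, chr10:24915221-24927484), was at 68.6, 82.9, 42.4, 61.2 and 63.0 CPM in HFD replicates 1 to 5, against 573, 115.5, 225, 168.5 and 817 CPM in LFD replicates 1 to 5. Each HFD library lay below each LFD library, and LFD replicates 1 and 5, which also had the highest Alb of their group, had the highest Arg1. The log2 fold change was -2.58 ± 0.53 SE. Besides the hepatocyte markers, the sum of the 6 Kupffer cell markers was lower in HFD (19.1 to 84.6 CPM, against 113 to 348 CPM in LFD). The sum of the 7 neutrophil markers was also lower (17.9 to 28.2 CPM, against 44.1 to 68.1 CPM in LFD). No marker of these lists was at 0, and the macrophage sums overlapped. Of the neutrophil list, S100a8 (0.403 to 2.58 CPM in HFD, 7.90 to 13.2 CPM in LFD) and S100a9 (0.353 to 5.20 and 14.4 to 25.0 CPM) did not overlap. The other neutrophil markers overlapped, and median Mmp8 was higher in HFD (1.41 CPM, against 1.26 CPM in LFD). The part of these cell types in the Arg1 difference was not tested.

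Ass1, argininosuccinate synthase (ENSMUSG00000076441, chr2:31470207-31520672), was at 45.3, 42.6, 28.3, 21.8 and 31.7 CPM in HFD replicates 1 to 5, against 680, 133, 269, 203 and 1195 CPM in LFD replicates 1 to 5, with a log2 fold change of -3.87 ± 0.62 SE. Asl, argininosuccinate lyase (ENSMUSG00000025533, chr5:130011258-130029247), was at 25.2, 27.7, 26.7, 24.6 and 23.8 CPM in HFD, against 184, 51.7, 86.1, 66.5 and 268 CPM in LFD, with -2.36 ± 0.43 SE. Neither gene overlapped between diets. Asl was nearly level among HFD libraries, with a coefficient of variation of 6.28%, while Alb varied from 168 to 1889 CPM in the same libraries.

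Ass1 has a near-identical copy, Gm5424, which shares 1240 aligned transcript bases with it at 99.5% identity. Ass1 took 31.9% to 34.8% of the joint counts in HFD libraries and 35.1% to 47.5% in LFD libraries, so the authors' counting splits reads between the copies and the level of Ass1 alone is uncertain. Summed with Gm5424, the log2 fold change of Ass1 was -3.69 ± 0.70 SE. For Odc1, 12 copies on the same strand and listed in the table of HFD and LFD held 22.2% to 24.3% of the joint counts, and the summed fold change was 0.18 ± 0.14, the same as for Odc1 alone to 2 decimals.

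The polyamine enzymes overlapped between diets. Odc1, ornithine decarboxylase (ENSMUSG00000011179, chr12:17544794-17551505), averaged 202 ± 26.8 CPM in HFD and 179 ± 34.7 CPM in LFD (SD, n = 5 each), so the log2 fold change was 0.18 ± 0.14 SE. Srm, spermidine synthase (chr4:148591503-148594993), averaged 98.6 ± 12.5 and 98.0 ± 26.5 CPM (0.01 ± 0.18 SE), and Sat1 (chrX:155213132-155216449) 93.1 ± 8.33 and 102 ± 13.6 CPM (-0.13 ± 0.10 SE) in HFD and LFD. Differences of these means were smaller than the SD within LFD, and the sign of Srm turned with RLE factors (-0.01). Arg2, the mitochondrial arginase (chr12:79130777-79156301), was nearly absent, at 0.199 to 0.404 CPM in HFD and 0.155 to 0.218 CPM in LFD. Arg2 did not pass the low-count filter, and it shares 285 exon bases with Vti1b on the opposite strand.

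In all, 4 of the 10 genes did not overlap between HFD and LFD, 1 higher and 3 lower in HFD, beside 30.6% of the 16340 genes tested (15.8% higher and 14.8% lower). The members were chosen with this contrast known, so nothing is read from that count. With log2 CPM of Alb as a covariate, the log2 fold change of Arg1 turned to 0.04, that of Ass1 was -0.79, that of Asl -0.52 and that of Nos1 5.35. Alb correlates at -0.88 with the diet label, so these values cannot set diet and Alb apart. Over all genes, 41.1% were called by edgeR's quasi-likelihood test at an adjusted p of 0.05.

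**Figure D2:**
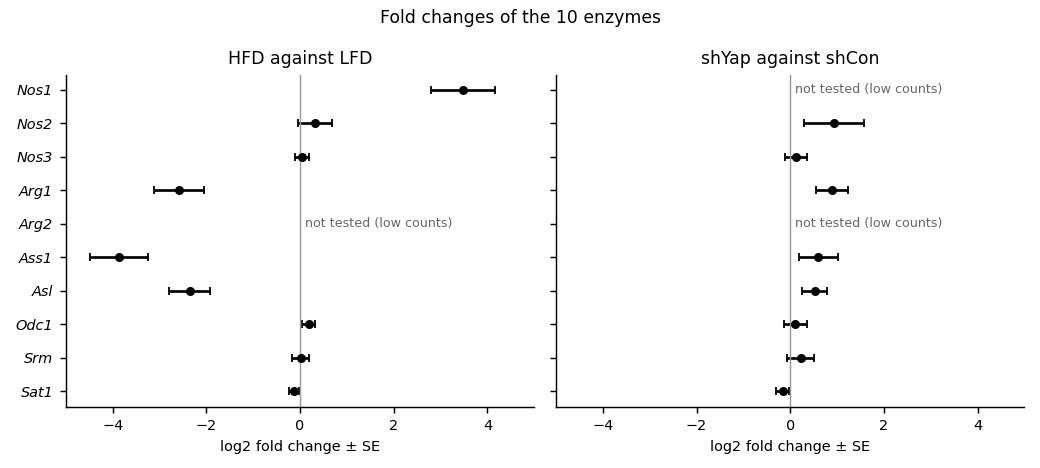
Log2 fold change (points) and standard error (bars) of the 10 enzymes in HFD against LFD and in shYap against shCon, from edgeR. In HFD against LFD, Nos1 is at 3.48 and Arg1, Ass1 and Asl are at -2.58, -3.87 and -2.36; in shYap against shCon the tested enzymes lie between -0.16 and 0.94.

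Levels per kilobase of annotated exon allow the genes to be ordered within a group. Copies of Ass1 and Odc1 are left out of this order, so the levels of both could be higher than given. Gm5424 averaged 66.5 CPM in HFD, 799 in LFD, 264.5 in shYap and 153 in shCon. Ass1 alone averaged 33.9, 496, 150 and 99.0 CPM, so its place is uncertain. In HFD the highest CPM per kilobase were those of Srm (61.6 ± 7.82) and Odc1 (59.5 ± 7.87), which did not differ beyond their spread, then Sat1 (33.6 ± 3.04) and Arg1 (28.5 ± 6.57), which also overlapped, then Ass1 (14.1 ± 4.11) and Asl (5.30 ± 0.333; SD, n = 5 each). Nos1 (1.81 ± 0.255) and Nos3 (1.56 ± 0.193) overlapped, and Nos2 (0.304 ± 0.127) and Arg2 (0.189 ± 0.0679) came last. In LFD, Ass1 (206 ± 185) and Arg1 (170 ± 136) stood first, with spreads that overlap those of Srm (61.3 ± 16.5) and Odc1 (52.6 ± 10.2), and Nos1 (0.170 ± 0.226) came ninth in place of seventh. In the libraries labelled shYap the order began with Srm (82.5 ± 37.5), Arg1 (77.8 ± 17.2), Ass1 (62.2 ± 22.9) and Odc1 (55.4 ± 21.9), and in shCon with Srm (70.6 ± 6.04), Odc1 (51.2 ± 5.74), Arg1 (41.6 ± 18.3) and Ass1 (41.1 ± 21.6; SD, n = 4 each). Nos1 was last in both hairpin groups.

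Alb measured in the same library was used to set hepatic from other sources. For each of the 18 libraries, the deviation of log2 CPM from the mean of its own group was compared between each enzyme and Alb, since Alb separates HFD from LFD and a pooled correlation would repeat the diet contrast. Arg1 (r = 0.73, rho = 0.72), Ass1 (r = 0.85, rho = 0.85) and Asl (r = 0.70, rho = 0.68) had positive correlations with Alb in these deviations, pooled over the groups. In a two-sided permutation test within groups their p was 0.00042, 1e-05 (the smallest the resamples can give) and 9e-05, and 0.0011, 1e-05 and 0.0007 for rho. The adjusted p of r was 0.0028, 0.0002 and 0.0009 over 20 relations, the 10 enzymes each with Alb and with macrophage markers. Without HFD replicate 2 and LFD replicate 5, the libraries farthest in Alb, r was 0.65, 0.86 and 0.66. In the 10 HFD and LFD libraries alone r was 0.78, 0.82 and 0.65, and in the 8 shYap and shCon libraries 0.57, 0.94 and 0.86. The relation did not show in every group. In libraries labelled shYap replicates 1 to 4, Arg1 deviated by -0.42, 0.12, 0.36 and -0.06 where Alb deviated by -0.54, 0.42, -1.02 and 1.14, and in HFD Asl stayed within -0.10 and 0.12 while Alb spanned -1.54 to 1.95.

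The other 7 enzymes did not pass in this relation, with adjusted p of 0.26 to 0.95. The relation with Alb was computed for the 10 enzymes only. The share of all genes that would pass is thus not known, and nothing is read from the number of enzymes that passed. Odc1 was at r = -0.06, Srm at -0.13 and Sat1 at -0.02 (permutation p = 0.82, 0.61 and 0.94). A pooled r does not mean a flat relation in each group. In the 10 HFD and LFD libraries and the 8 hairpin libraries, r was -0.05 and -0.09 for Odc1. It was -0.41 and 0.24 for Srm, and 0.21 and -0.45 for Sat1. In LFD replicates 1 to 5, Srm deviated by -0.279, 0.438, -0.039, 0.354 and -0.475. Alb deviated there by 0.859, -1.386, -0.442, -0.874 and 1.843. Nos2 was at a pooled r of -0.40 and Nos1 at 0.40 (permutation p = 0.10 and 0.14). Without the 2 farthest libraries r was 0.06 for Nos1 and -0.64 for Nos2 (permutation p = 0.84 and 0.0092). With the mean of the 10 macrophage markers in place of Alb, no enzyme rose with the markers past an adjusted p of 0.05. Nos2 was at r = 0.27 (permutation p = 0.27, adjusted 0.54) and Arg1 at -0.69 (permutation p = 0.033, adjusted 0.13). The pooled r hid differences between the 10 HFD and LFD libraries and the 8 hairpin libraries. In these, in that order, r was -0.89 and 0.04 for Arg1, and 0.77 and -0.60 for Srm. For Odc1 it was 0.58 and -0.69, and for Sat1 -0.43 and 0.67. Ass1 passed with a negative r of -0.78 (permutation p = 0.0044, adjusted 0.022), while its rho of -0.63 did not (permutation p = 0.028, adjusted 0.14). Its r was -0.92 in the 10 HFD and LFD libraries, -0.36 in the 8 hairpin libraries, -0.54 without LFD replicates 2 and 5, and -0.63 with an adjusted permutation p of 0.089 without LFD replicate 5, whose macrophage sum was the lowest of all libraries (2131 CPM) and whose Alb was the highest (51490 CPM).

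**Figure D3:**
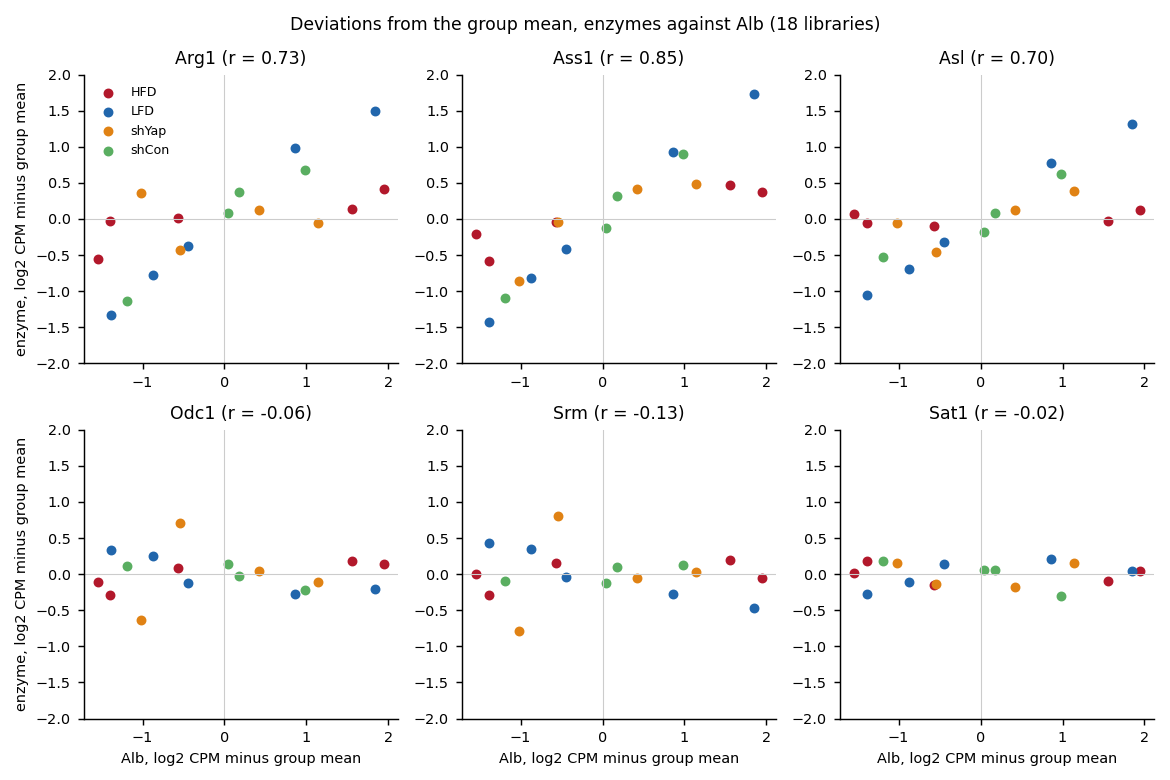
Deviation of log2 CPM from the group mean for 6 enzymes (vertical axis) against that of Alb (horizontal axis) in 18 libraries, coloured by group. Pooled over the groups, Arg1, Ass1 and Asl rise with Alb (r = 0.73, 0.85 and 0.70), though Arg1 in shYap and Asl in HFD do not. Odc1, Srm and Sat1 have a pooled r of -0.06, -0.13 and -0.02, though Srm falls as Alb rises in LFD.

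Counts of an enzyme per 1000 counts of Alb in the same library do not depend on scaling. For Arg1 this ratio was 47.5, 43.9, 252, 328 and 191 in HFD replicates 1 to 5, against 22.0, 21, 21.3, 21.5 and 15.9 in LFD replicates 1 to 5. All HFD libraries were above all LFD libraries, and LFD was nearly constant although its Alb varied from 5492 to 51490 CPM. Asl did not overlap either, at 14.7 to 159 in HFD and 5.20 to 9.41 in LFD. Ass1 summed with Gm5424 was at 67.8 to 491 in HFD and 52.1 to 67.5 in LFD, so that HFD replicate 2 was next to the LFD range, and Ass1 alone overlapped (22.5 to 169 in HFD, 23.2 to 26.1 in LFD). Levels of these RNAs were thus lower in HFD tumours, while their ratios to Alb were higher or overlapped. The log2 fold change of Alb itself was -4.66 ± 0.99 SE. Any RNA that falls less than Alb has a higher ratio in HFD, so a higher ratio is not particular to these enzymes.

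The ratios in the hairpin tumours lay mostly below those of LFD tumours, with Alb levels that overlapped. Arg1 per 1000 Alb was 11.0, 8.28, 26.4 and 4.44 in libraries labelled shYap replicates 1 to 4 and 8.87, 9.83, 8.83 and 6.90 in shCon replicates 1 to 4. The library labelled shYap replicate 3 was above the LFD range and the other 7 below it. Ass1 with Gm5424 was at 13.6 to 31.9 in shYap and 19.4 to 23.8 in shCon, all below the lowest LFD value of 52.1. Asl was at 2.10 to 6.87 in shYap and 3.21 to 6.50 in shCon, ranges that overlapped that of LFD (5.20 to 9.41). Diet, Xist and the separate quantification all differ between LFD and the hairpin tumours and cannot be told apart.

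**Figure D4:**
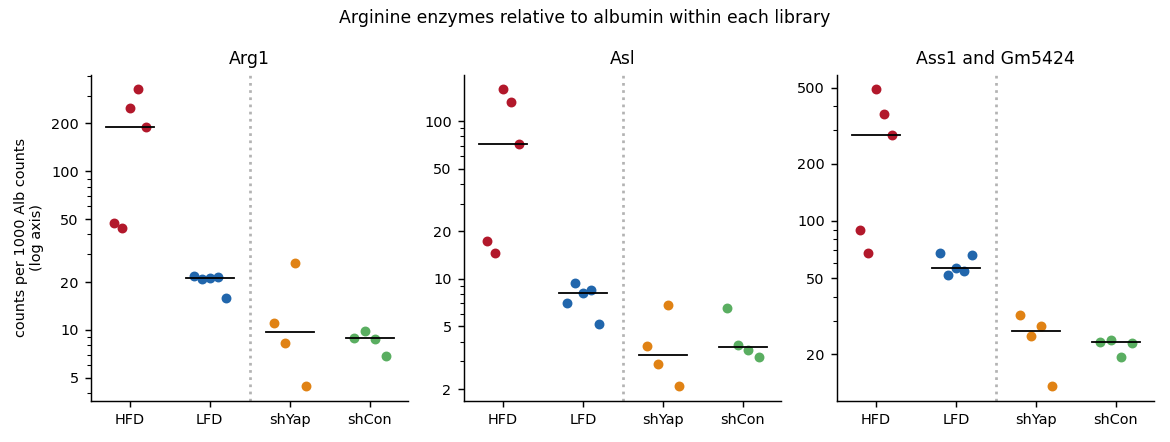
Estimated counts of Arg1, Asl and the sum of Ass1 and Gm5424 per 1000 estimated counts of Alb (log axis) in each library, with a black line at the group median. The LFD libraries lie close together (15.9 to 22.0 for Arg1), HFD libraries spread above them (43.9 to 328), and the shCon libraries lie at 6.90 to 9.83.

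In the other comparison, of tumours labelled with the hairpin against Yap and with the control hairpin, none of the 8 members tested passed. No gene of 16571 did so in edgeR (0%), while 1804 had an unadjusted p under 0.05, and DESeq2 called 409 genes and limma voom 0. Arg1 was at 127, 185, 219 and 164 CPM in libraries labelled shYap replicates 1 to 4, against 38.2, 109, 89.4 and 134 CPM in shCon replicates 1 to 4. The groups overlapped only in that shCon replicate 4 exceeded shYap replicate 1. The log2 fold change was 0.90 ± 0.34 SE, with an adjusted p of 0.389 in edgeR, and Arg1 was the one member with an unadjusted p under 0.05, beside 10.9% of all genes tested. Ass1 (0.60 ± 0.42 SE) and Asl (0.52 ± 0.26 SE) were also higher in mean, with adjusted p of 0.683 and 0.527 in edgeR. Alb differed in the same direction, at 19750 ± 12900 CPM in shYap and 11250 ± 6250 CPM in shCon (SD, n = 4 each). With Alb as a covariate the fold changes of Arg1, Ass1 and Asl were 0.77, 0.11 and 0.25.

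The library labelled shYap replicate 3 was at an end of the range for several members, although Dixon's criterion set none of its values apart. It had the highest Arg1 of the hairpin libraries (219 CPM) with the lowest Alb of its group (8278 CPM). Nos2 was at 1.98, 1.62, 7.26 and 0.598 CPM in shYap replicates 1 to 4 and at 1.10 to 1.71 CPM in shCon, and Arg2 at 0.0507, 0.454, 2.33 and 0.870 CPM in shYap and 0.10 to 0.387 CPM in shCon. All 3 genes peaked in that library, where Odc1 (115 CPM) and Srm (70.95 CPM) had their lowest values of the hairpin libraries. Ass1 was at 77.9 CPM there, the lowest of the shYap libraries (136.5 to 198 CPM in the others), and Asl at 56.8 CPM was within their range. The log2 fold change of Nos2 was 0.94 ± 0.64 SE (adjusted p = 0.67 in edgeR) and -0.06 without that library. Its 7 neutrophil markers summed to 126 CPM, the highest among the hairpin libraries, against 38.3 to 91.5 CPM in the other shYap libraries and 43.7 to 90.8 CPM in shCon, and its Kupffer cell sum of 70.9 CPM was the lowest. Its macrophage sum was 3605 CPM, against 2656 to 3623 CPM over the shYap libraries and 3482 to 3947 CPM in shCon. Their part in these values was not tested.

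Nos1 and Arg2 were too low for the test in shYap against shCon. Nos1 did not overlap, at 10 to 22 counts in the libraries labelled shYap and 7 to 9 in shCon, beside 6.57% of the genes tested (2.61% higher and 3.96% lower). Without a filter on low counts its log2 fold change was 0.96 ± 0.46 SE, with an adjusted p of 0.565 in edgeR, and that of Arg2 was 2.22 ± 0.87 SE (adjusted p = 0.471). Nos3 (0.12 ± 0.24 SE), Odc1 (0.11 ± 0.25), Srm (0.22 ± 0.28) and Sat1 (-0.16 ± 0.14) had adjusted p of 0.761 to 0.918 in edgeR.

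Pooled over the groups, Odc1 and Srm, consecutive enzymes of polyamine synthesis, moved together, though not in shCon. In shCon replicates 1 to 4, Odc1 deviated by 0.112, -0.030, 0.142 and -0.223, and Srm by -0.097, 0.093, -0.116 and 0.120. In libraries labelled shYap replicates 1 to 4, Odc1 was at 291, 183, 115 and 165 CPM and Srm at 214, 118, 70.95 and 125 CPM, against 148 to 191 and 104 to 122.5 CPM over the shCon libraries. Replicate 1 was highest and replicate 3 lowest of the hairpin libraries in both genes. Over the deviations of 18 libraries from their group means r was 0.88 (rho = 0.71, permutation p = 0.0027 and 0.0076, adjusted over 45 pairs of members 0.03 and 0.069), and 0.70 without shYap replicates 1 and 3. Besides Odc1 and Srm, the pairs Ass1 and Asl (r = 0.91, rho = 0.87), Arg1 and Asl (0.91, 0.81) and Arg1 and Ass1 (0.86, 0.75) passed for r, with permutation p of 0.00017, 0.00025 and 0.0015 and adjusted p of 0.0056, 0.0056 and 0.022. Without LFD replicates 2 and 5 r was 0.82, 0.82 and 0.74. Without LFD replicate 2 or 3, no pair of the 45 passed. The pairs were added after seeing the data and computed for members only. The share of all gene pairs that would pass is thus not known.

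Other genes of the same pathways, 55 in 5 lists, were tested in full. In HFD against LFD 32 of 52 tested passed in edgeR, 9 higher and 23 lower, beside 19.4% higher and 21.6% lower over all genes. The lists were drawn up with earlier results known, and the hepatocyte and Xist differences above go with each of them. With log2 CPM of Alb as a covariate, which correlates at -0.88 with the diet label, 1 of the 52 passed. Over all 16340 genes tested, 660 passed with that covariate, so the drop is not particular to these lists.

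The urea cycle partners fell in all 5 genes tested of 6 (median log2 fold change -4.58, against 0.00 over all genes). Otc, ornithine transcarbamylase, was at 0.911 ± 0.773 CPM in HFD and 152 ± 138 CPM in LFD (SD, n = 5 each), a fold change on the log2 scale of -7.37 ± 0.92 SE. Nags, which makes the activator of the cycle, was at -4.58 ± 0.90, Cps1, which fixes ammonia in its first step, at -5.61 ± 1.27, and the mitochondrial aspartate-glutamate carrier Slc25a13 at -1.45 ± 0.34. Their adjusted p in edgeR was 0.00049, 0.0035, 0.00701 and 0.00752, in the order given.

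Enzymes of ornithine, proline and creatine fell in 5 of 9 and rose in 1 (median -0.44). Pycr1, which closes proline synthesis in mitochondria, rose by 1.18 ± 0.12, at 24.6 ± 2.46 CPM in HFD and 10.8 ± 1.65 CPM in LFD (SD, n = 5 each), with an adjusted p of 0.000172 in edgeR. Prodh, which opens proline breakdown, was at -3.37 ± 0.53, Gamt, of creatine synthesis, at -3.14 ± 0.47, and the agmatinase Agmat at -4.98 ± 0.99 (adjusted p = 0.00126, 0.00105 and 0.00386 in edgeR). Proline synthesis and breakdown thus moved in opposite directions in these 2 genes.

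Among the polyamine enzymes and regulators 4 of 17 rose and 4 fell (median 0.07). Sms, spermine synthase, was at 59.6 ± 2.32 CPM in HFD and 30.0 ± 5.79 CPM in LFD (SD, n = 5 each; 0.99 ± 0.13 SE), and Azin2, an antizyme inhibitor, rose by 0.82 ± 0.17. Paox, the oxidase of acetylated polyamines, was at 13.7 ± 1.24 CPM in HFD and 31.4 ± 7.07 CPM in LFD (-1.19 ± 0.15 SE), and Sat2, a paralogue of Sat1, was at -1.90 ± 0.28. Adjusted p in edgeR was 0.000527, 0.00395, 0.000368 and 0.000797 for these 4 genes.

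Of the nitric oxide list 4 of 17 tested genes rose and 8 fell (median -0.69). Gch1, the first enzyme of the synthases' cofactor tetrahydrobiopterin, was at 7.86 ± 1.43 CPM in HFD and 58.9 ± 51.7 CPM in LFD (SD, n = 5 each; -2.90 ± 0.58 SE), and Pts, which acts next, was at -0.69 ± 0.13. Cav1, caveolin 1, a binding partner of Nos3, was at 1130 ± 51.8 CPM in HFD and 499 ± 121 CPM in LFD (1.18 ± 0.16 SE), and Ddah2, of the family that degrades methylated arginines, rose by 1.05 ± 0.15. Their adjusted p in edgeR was 0.00397, 0.00262, 0.000527 and 0.000689. Thus the Nos1 of HFD tumours stood beside lower cofactor genes. Ddah1, of the same family as Ddah2, went the other way, at 9.70 ± 2.62 CPM in HFD and 57.5 ± 56.2 CPM in LFD (-2.56 ± 0.61 SE, adjusted p = 0.00848 in edgeR). Of the cationic amino acid carriers 1 of 4 tested passed, Slc7a2, an arginine carrier, at 12.2 ± 6.35 CPM in HFD and 206 ± 229 CPM in LFD (-4.07 ± 0.80 SE, adjusted p = 0.00367 in edgeR).

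**Figure D5:**
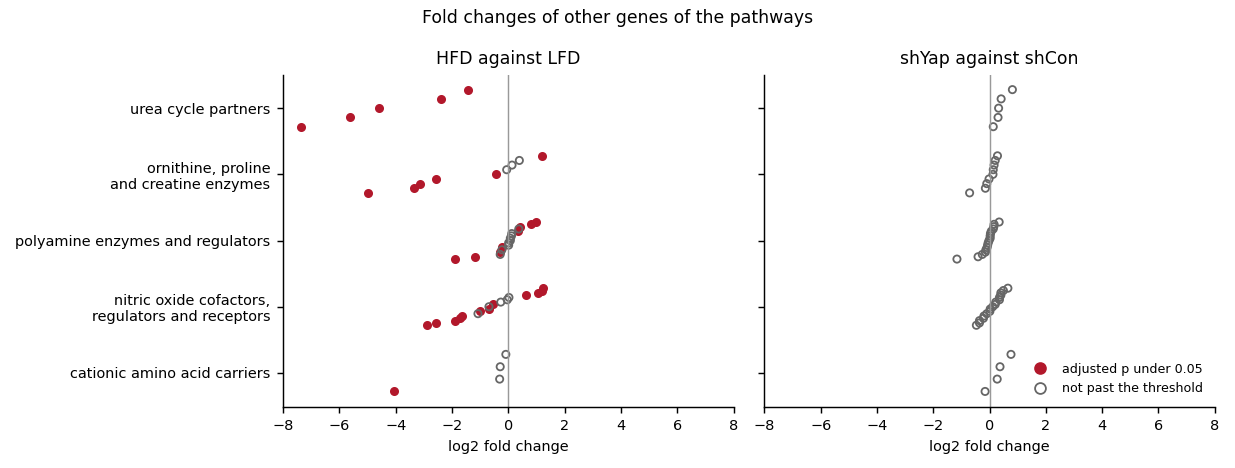
Log2 fold change of each tested gene of the 5 pathway lists in HFD against LFD and in shYap against shCon, from edgeR; filled points passed an adjusted p of 0.05. In HFD against LFD 9 genes lie above and 23 below 0 among the filled points, and in shYap against shCon no point is filled.

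In shYap against shCon 0 of the 52 pathway genes tested passed in edgeR, and 0 in DESeq2 and limma voom, with 2 at an unadjusted p under 0.05. These were Gatm, the first enzyme of creatine synthesis, at 47.7 ± 13.3 CPM in libraries labelled shYap and 78.0 ± 9.90 CPM in shCon (SD, n = 4 each; -0.71 ± 0.20 SE, adjusted p = 0.237 in edgeR), and Cav1 (0.65 ± 0.23 SE, adjusted p = 0.349). They were named after their values were seen. The median log2 fold change of the 5 lists lay between -0.02 and 0.32, against 0.03 over all genes.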

How the data were processed

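RNA of 18 tumour libraries was analysed. The authors deposited estimated counts per gene in 2 tables, which need not be whole. Names of the deposited tables carry the mark of an expectation-maximisation count in Partek. Per the submitters' processing notes, the tools were STAR 2.7.3a and also Partek and DESeq2, in roles not stated, and the builds GRCm38 and mm10. The annotation and library strand are not given in the sources used here. Estimated counts were rounded, and the 2 tables were fitted apart in edgeR 4.0.16 (R 4.3.3; filterByExpr with a minimum count of 10, TMM, robust quasi-likelihood F test, Benjamini-Hochberg adjusted p under 0.05). The SE is the log2 fold change over the square root of F. Means, SD and CPM use the TMM-scaled library size.

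Within-group relations used log2 CPM with a prior count of 2 and 100000 resamples permuted within groups. The pairs of members were added after seeing the data. Exon lengths, coordinates and overlaps come from GENCODE M21, whose starts equal the deposited ones for the 10 genes (deposited ends are 1 base higher). Copies are transcripts of other genes that match at 90% identity or more over at least 200 bases. Pycr3 and Tf were matched through their older or official symbols Pycrl and Trf.

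Alternatives were DESeq2 1.42.0, limma voom (limma 3.58.1), RLE and upper-quartile factors, other filters, the replicate number as a block, Alb as a covariate, the closest HFD libraries summed, each library left out, and, added after seeing the data, copies of Ass1 and Odc1 summed. All members are named, with up to 4 called genes of each pathway list by p, and Ddah1 beside Ddah2. The members and lists were chosen with earlier results of these data known. Intervals for single counts are not given, and depth sets the precision of Nos1, Nos2 and Arg2, which rest on few counts in most groups.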

Additional observations from a re-analysis of the deposited data

Results flagged for a closer look

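In 44 sets of values, the 10 enzymes and Alb in each of the 4 groups, 2 libraries lay apart from the rest of their group by Dixon's criterion, which chance meets in about 1 of 20 sets. Nos1 was at 6.35 CPM in LFD replicate 5, against 0.490 to 1.51 CPM in the other LFD libraries. Arg2 was at 0.387 CPM in shCon replicate 4, against 0.10 to 0.143 CPM in the other shCon libraries, a difference of a few counts.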

How the results depend on the processing

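Changing the processing left the number of non-overlapping members in HFD against LFD (4) and the number of members past the threshold in shYap against shCon (0) the same in each alternative run. The 3 members that passed with Alb did so in each, with 1 further member of negative sign without HFD replicate 2. DESeq2, limma voom, filters, the block and the covariate give no overlap count. In HFD against LFD 660 genes passed with Alb as a covariate and 4233 with the closest HFD pairs summed, against 6710, and 1 pathway gene with the covariate, against 32. With that covariate Arg1 changed sign, to 0.04. Upper-quartile factors turned the split of calls to 3700 higher and 2999 lower, against 3178 and 3532, and moved the median by 0.08. In shYap against shCon DESeq2 called 409 genes, and leaving out 1 library gave 0 to 94 (94 without shCon replicate 4 and 1 without shYap replicate 4). With macrophage markers 2 members passed on unscaled totals and 0 with Cd68 alone, and leaving out 1 library gave 0 to 2. The number of member pairs was 0 to 6 when 1 library was left out. The cause was not tested. Same-numbered libraries did not deviate together (correlations of -0.5 to 0.315 for the diets and -0.052 to 0.182 for the hairpins). No pairing by number was thus seen, but Alb varied widely within groups and could mask one. With the replicate block 4929 genes passed in HFD against LFD, 28 pathway genes did, and 0 passed in shYap against shCon.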
